A study of Caenorhabditis elegans with 2 samples.

Results

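The genes described here were the 263 protein-coding genes of Caenorhabditis elegans whose symbol is nhr- followed by a number, out of 269 such genes and 19973 protein-coding genes in the annotation. They were chosen by symbol, with no measured value in the rule but with earlier results of these data known. The 6 nhr genes left out were nhr-23, nhr-25, nhr-41, nhr-73, nhr-74 and nhr-85, a set linked to the molts. Their binding by the zinc-finger transcription factor BLMP-1 was read from ChIP-seq, the sequencing of immunoprecipitated chromatin, of whole first-stage (L1) larvae, with males and females pooled. All worms belonged to strain OP109. Its genotype has the mutation unc-119(ed3) on chromosome III and wgIs109, an inserted transgene that makes eGFP-tagged BLMP-1. There was 1 group with 2 biological replicates and no other condition, and the libraries of the possible control named in the labels were not analysed here. Because whole animals were used, a peak cannot be assigned to a tissue, and what was measured is the tagged protein from the transgene.

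The measurements were peak lists on genome build ce11 (WBcel235). The optimal list held 8751 peaks that passed the authors' irreproducible discovery rate (IDR) analysis, ranked here by the authors' signal, which has no stated scale. Replicates 1 and 2 had lists of their own with 27310 and 30000 peaks, and a list from both together had 30000. A gene was bound when the summit of an optimal peak lay near one of its transcript starts, no more than 1500 bp before it or 500 bp after it. Its best peak was the one with the highest signal. Read depth is unknown, so intervals below are exact binomial ones on counts of genes and cover counting error only. Differences between groups of genes, and from all protein-coding genes, are given side by side and were not tested, since the genes were chosen with earlier results of these data known.

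Nuclear hormone receptors are transcription factors with a zinc-finger domain that binds DNA and a domain that can bind small lipophilic molecules such as steroids and fatty acids. Nematodes have many more of them than insects or vertebrates, and most of the extra worm receptors are thought to descend from a gene like HNF4, a vertebrate regulator of liver and gut metabolism. Some worm receptors control fat storage, vitamin-dependent metabolism, responses to toxins or development, while the function of many others is unknown. BLMP-1 is the worm homolog of the mammalian factor Blimp-1 (PRDM1) and is known for roles in the epidermis, in the timing of larval development and in the migration of the gonadal distal tip cells.

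Sequences around the summits are shown to let the strongest receptor peaks be read beside the DNA motif associated with BLMP-1, AAAGTGAAA. Each is 150 bases of the RefSeq WBcel235 genome centred on the summit of the best peak and is written 5′ to 3′ on the strand of the gene. Capitals mark a match to AAAGTGAAA or its reverse complement TTTCACTTT with at most 1 mismatch. The 4 sequences below belong to the 3 highest ranked receptor peaks found in both replicates and to nhr-201, the highest ranked peak in the large tandem clusters described further on, and none holds a match.
nhr-135, chrV:7093912-7094061, minus strand: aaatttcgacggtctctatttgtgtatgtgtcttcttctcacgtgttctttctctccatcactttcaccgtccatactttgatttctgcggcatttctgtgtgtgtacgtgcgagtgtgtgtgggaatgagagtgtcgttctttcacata
nhr-14, chrX:8477581-8477730, minus strand: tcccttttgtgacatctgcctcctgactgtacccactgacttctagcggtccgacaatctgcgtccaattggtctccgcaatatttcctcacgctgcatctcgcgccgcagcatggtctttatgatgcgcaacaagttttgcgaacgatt
nhr-57, chrV:4131593-4131742, plus strand: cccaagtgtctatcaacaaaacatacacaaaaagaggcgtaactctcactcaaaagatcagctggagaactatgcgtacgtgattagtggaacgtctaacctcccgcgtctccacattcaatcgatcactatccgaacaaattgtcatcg
nhr-201, chrV:465480-465629, plus strand: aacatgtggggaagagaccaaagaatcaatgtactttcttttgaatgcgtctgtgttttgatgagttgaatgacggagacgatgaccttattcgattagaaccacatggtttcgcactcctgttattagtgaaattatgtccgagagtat

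Both sequences that follow were chosen after their values were seen. The peak of nhr-256 was the highest ranked receptor peak with a match, which has 1 mismatch (TCTCACTTT), and that of nhr-156 was the receptor peak with an exact match.
nhr-256, chrV:1743632-1743781, plus strand: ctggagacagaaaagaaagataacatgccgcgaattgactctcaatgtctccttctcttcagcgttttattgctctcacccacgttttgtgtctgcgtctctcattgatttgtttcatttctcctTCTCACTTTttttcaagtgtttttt
nhr-156, chrV:3905962-3906111, plus strand: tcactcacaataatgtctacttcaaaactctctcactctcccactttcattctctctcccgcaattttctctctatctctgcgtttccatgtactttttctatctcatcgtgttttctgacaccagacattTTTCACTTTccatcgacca

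BLMP-1 peaks lay in the windows of 99 of the 263 receptor genes (37.6%, exact 95% interval 31.8 to 43.8%), against 27.4% of all protein-coding genes. The remaining 164 had no optimal peak in their windows. When only the 4375 strongest optimal peaks were used, 46 receptor genes were bound (17.5%, 13.1 to 22.6%), near the 15.3% of all protein-coding genes. The best peaks of the 99 bound receptors had a median rank of 4660, and those of all 5476 bound genes a median rank of 3903.5. No receptor had a peak among the first 100. Over all bound genes 70 had one there, which is 1.28% of them, so this absence does not set the 99 receptors apart. Among the first 1000, 12 receptors had a best peak (12.1% of bound receptors, against 11.7% of all bound genes). In the replicates' own lists, cut at their 8751 strongest peaks, replicate 1 bound 99 receptor genes (37.6%, with 27% of all genes) and replicate 2 bound 93 (35.4%, with 27.9% of all genes).

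The strongest receptor peak lay upstream of nhr-135, 1 of a pair of neighbouring receptors on chromosome V, in intergenic sequence 217 bp before the start (V 7093855 to 7094149). It had rank 106 and signal 1209 in the optimal list, rank 62 in replicate 1 and rank 153 in replicate 2, so that it was the highest receptor peak in each of the 3 lists. It stood well ahead of the next. That was the peak of nhr-14, a receptor known for its part in iron uptake and pathogen defence in the intestine, at rank 475 (signal 621, X 8477444 to 8477819), with ranks 522 and 503 in replicates 1 and 2. It lay 1478 bp upstream, near the limit of the window. The peak of nhr-57, a gene known to be induced by low oxygen through HIF-1, had rank 619 (signal 538, V 4131497 to 4131768, 221 bp upstream) and ranks 536 and 588 in the replicates. These 3 sites thus had similar standing in both replicates, and all 3 are among the sequences printed above.

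The other 9 best peaks up to rank 1000 lay close together in rank. The peak of nhr-256 had rank 673 (V 1743563 to 1743819, 64 bp upstream), with ranks 866 and 593 in replicates 1 and 2. The peak of nhr-58 (rank 839, V 532098 to 532389) had its summit just inside the gene, 9 bp downstream of the start. That of nhr-34 (rank 882, IV 9672508 to 9672802) lay well inside the gene, 12 bp downstream of an internal start, 1 of 5. It was the single best receptor peak in a coding exon, that of nhr-34 itself. The peak of nhr-1 had rank 910 (X 17513698 to 17513942, 281 bp upstream), and that of nhr-201 had rank 949 (V 465435 to 465689), in the 5′ UTR of that gene, 371 bp after a start. Rank 971 fell to nhr-21 (II 7339052 to 7339404, 5′ UTR, 17 bp downstream of a start) and rank 975 to nhr-232 (V 10255147 to 10255374, 917 bp upstream). The latter summit lay nearer to the start of rop-1, a neighbour whose window also held it. Last came nhr-49 at rank 976 and nhr-88 at rank 977 (II 2977717 to 2977957, intron of nhr-88). The replicates placed nhr-88 differently, at rank 380 in replicate 1 and 2000 in replicate 2. Of these 12 receptors, 8 had a best peak that was also among the first 1000 of each replicate, and the exceptions were nhr-21, nhr-232, nhr-49 and nhr-88.

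Receptors of fat and lipid metabolism were mostly bound, in 6 of 7 cases, against 27.4% of all protein-coding genes. All of them but nhr-76 have 2 or more transcript starts, and of all genes with 2 or more starts 40.3% were bound. The gene nhr-49, whose product drives fatty acid oxidation and desaturation and is often compared with the mammalian receptor PPARα, had 4 peaks over 6 transcript starts. The best lay in intergenic sequence 365 bp upstream (I 9869134 to 9869407, signal 419) and ranked 1672 in replicate 1 and 753 in replicate 2. Its partner gene nhr-66, linked to sphingolipid metabolism, also had 4 peaks, over 7 starts, with the best at rank 2169 (IV 8232725 to 8232865) in an exon of the non-coding gene anr-44. That site ranked 3441 in replicate 1 and 1823 in replicate 2. The gene nhr-62, needed for the longer life of worms on a restricted diet, had 1 peak in its own intron at rank 1400 (I 9842423 to 9842645), with ranks 1710 and 1333 in the replicates. The gene nhr-64, linked to fat storage, had 3 peaks, the best at rank 3836 (I 3100739 to 3101074). The gene nhr-80, which acts with nhr-49 on fatty acid desaturases, had 2 peaks with the best at rank 3904, 75 bp upstream, ranked 2067 and 4491 in replicates 1 and 2. The gene nhr-76, linked to fat loss under serotonin signalling, had a weaker peak (rank 6162, 980 bp upstream). All 6 had support in both replicates, meaning a summit within 100 bp among the 8751 strongest peaks of each. The exception was nhr-13, another partner of nhr-49, which had no optimal peak in its windows and whose best peak in the list from both replicates together ranked 10174.

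All 3 receptors of propionate and vitamin B12 metabolism were bound and supported in both replicates, where 27.4% of all protein-coding genes were bound and 21.8% bound with such support. The genes nhr-10 and nhr-68 act in sequence to turn on the propionate shunt, a pathway used when vitamin B12 is low. Their best peaks had similar ranks, 1920 for nhr-10 (III 7116710 to 7116915, 1390 bp upstream) and 2124 for nhr-68 (V 11572939 to 11573115, 410 bp upstream). Replicates 1 and 2 placed the site of nhr-10 at ranks 1490 and 2161 and the site of nhr-68 at 2140 and 2063. The summit of nhr-68 lay nearer to the start of the neighbour H12C20.7 than to its own. The gene nhr-114, which protects the germline when vitamin B12 is short, had a much weaker peak (rank 7372, V 4186501 to 4186836) with ranks 6557 and 7763, in an intron of Y45G5AM.9.

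Of 5 receptors tied to stress, toxins and pathogens, 3 were bound, nhr-14, nhr-57 and nhr-86, against 27.4% of all protein-coding genes. The last of these, which senses a bacterial metabolite in the intestine, had 2 peaks with the best at rank 4084 (V 2066808 to 2067143, 126 bp upstream), in a window shared with the lipid-binding protein gene lbp-9. Left unbound were nhr-176, known for the response to the drug thiabendazole, and nhr-45, which acts in the response to mitochondrial toxins. For nhr-176 the next optimal peak upstream was 24528 bp away (rank 6103). For nhr-45 it was 2332 bp away, outside the 1500 bp limit, and strong (rank 204). With a window of 3000 bp, or with the nearest start only, nhr-45 was bound. Of 4 receptors with roles in development 3 were bound, against the same 27.4%. Among them nhr-31, needed for growth of the excretory canal, had 3 peaks with the best at rank 2408 in its own intron (IV 8026506 to 8026757). The site ranked 1670 in replicate 1 and 3079 in replicate 2. The gene nhr-40, needed for embryonic and muscle development, had its best of 2 peaks at rank 3523 (X 2592988 to 2593323), and nhr-60, which acts in the epidermal seam cells, had 1 at rank 7230. The gene nhr-2, which acts in the early embryo, was not bound.

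Of 6 receptors with clear orthologs in other animals, 3 were bound, against 27.4% of all protein-coding genes. They were nhr-91, the ortholog of vertebrate GCNF, and nhr-8 and nhr-48, relatives of the steroid receptor gene daf-12. The gene nhr-91 had 3 peaks, the best at rank 1938 (X 15307938 to 15308216, 1307 bp upstream), and the replicates differed widely there, with rank 6501 in replicate 1 and 1326 in replicate 2. The gene nhr-8, known for resistance to toxins and for cholesterol balance, had 1 peak at rank 4411 (IV 7709737 to 7710072, 1078 bp upstream). That summit was nearest to the start of mrps-24 and also lay in the windows of mrpl-1 and emc-6. The best peak of nhr-48 (rank 6656) had no summit within 100 bp in the whole list of replicate 1 and ranked 3951 in replicate 2. A weaker peak of nhr-48 (rank 8035, 93 bp upstream) had support in both replicates. Not bound were nhr-6, the NR4A ortholog of the spermatheca, nhr-67, the tailless ortholog that acts in the uterus and anchor cell, and nhr-111, a further relative of tailless.

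Across these 5 role lists, 18 of 25 receptors were bound (72%), and among the 238 receptors in none of the lists 81 were bound (34%), against 27.4% of all protein-coding genes. Each list is small, with 3 to 7 receptors, and the share in any 1 list was not tested. The number of transcript starts differed too: 16 of the 25 had 2 or more starts, and 75 of the 238. Whether this bears on the difference in binding was not tested. Within receptors with 2 or more starts, 14 of 16 in a role list were bound (87.5%) and 37 of 75 in none (49.3%), against 40.3% of all genes with 2 or more starts. Receptors with a single start were bound in 4 of 9 cases (44.4%) and 44 of 163 (27%), against 22.8% of all genes with 1 start. Receptor genes with other symbols were not bound in any of the 5 cases examined, which were daf-12, the neuronal genes unc-55, fax-1 and odr-7, and sex-1, an X-linked gene of sex determination. Of 5 genes of receptor partners and of steroid synthesis, 2 were bound. These were din-1, which encodes a corepressor of DAF-12 (4 peaks, best rank 17, ranks 3 and 60 in the replicates), and mdt-15, the Mediator subunit gene that works with nhr-49 (rank 6877). With 27.4% of all protein-coding genes bound, counts out of 5 genes do not set either list apart. The coactivator gene cbp-1 and the genes daf-9 and daf-36, whose enzymes make the ligands of DAF-12, were not.

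Receptor genes were spread unevenly over the chromosomes, and so was binding. Chromosome V held 167 of the 263, of which 53 were bound (31.7%, exact 95% interval 24.8 to 39.4%), where 20.1% of all protein-coding genes of that chromosome were bound. On chromosome X 14 of 22 were bound (63.6%, 40.7 to 82.8%, against 28.7%), and on chromosome IV 17 of 32 (53.1%, 34.7 to 70.9%, against 24.9%). Shares on the other chromosomes lay within their wide intervals of the background. They were 6 of 19 on chromosome I (31.6%, 12.6 to 56.6%, against 34.1%), 6 of 15 on chromosome II (40%, 16.3 to 67.7%, against 27.2%) and 3 of 8 on chromosome III (37.5%, 8.52 to 75.5%, against 36.1%). With each gene judged by whether it starts in the central 50% of its chromosome or in the outer 25% on either side, 51 of 107 central receptors were bound (47.7%, against 32.5% of all central genes). In the outer parts 48 of 156 were bound (30.8%, against 21.1%). On chromosome V 29 receptors in the outer parts were bound (26.1% of those there, 18.2 to 35.3%), where 12.1% of all genes were bound, and 24 of 56 in the centre (42.9%, 29.7 to 56.8%, against 27.4%).

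**Figure D1:**
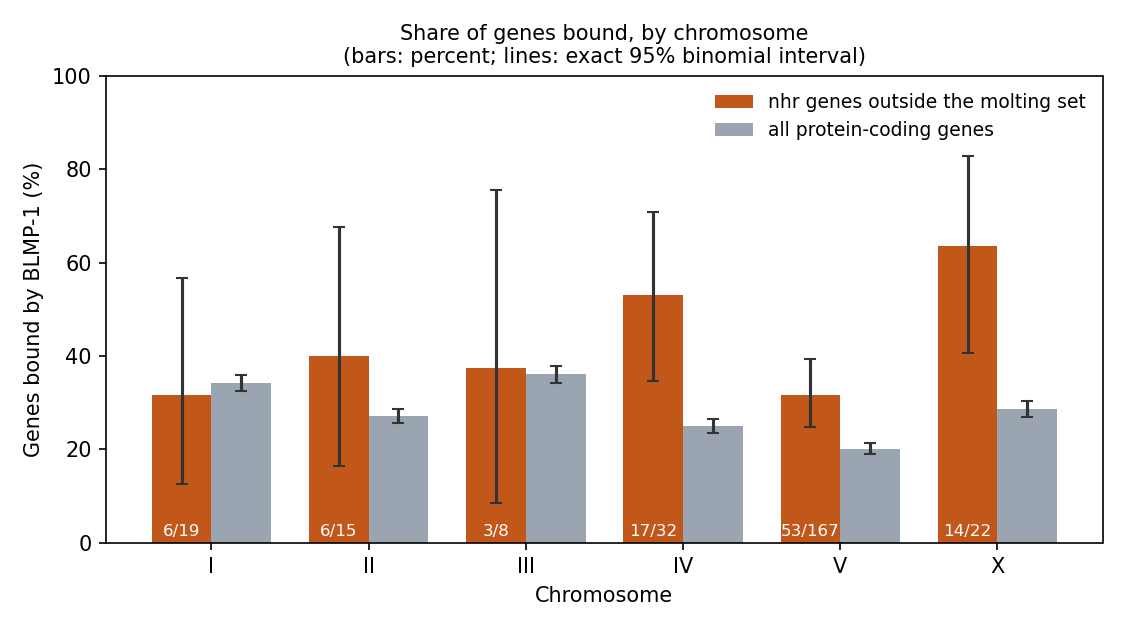
Percent of genes bound by BLMP-1 on each chromosome, for the 263 receptor genes (orange, with bound over total counts) and for all protein-coding genes (grey); bars give the percent and lines the exact 95% binomial interval. The lower limit of the receptor share lies above the grey bar on chromosomes IV, V and X, with 53.1%, 31.7% and 63.6%, while the intervals on I, II and III cover the background.

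Many receptor genes sit beside each other. With receptors counted as 1 tandem cluster when at most 2 other protein-coding genes separated neighbours, 160 lay in 45 clusters and 103 stood alone. Of these clusters 30 were on chromosome V, with 119 receptors, and 22 were pairs. Clustered receptors were bound in 54 of 160 cases (33.8%, exact 95% interval 26.5 to 41.6%) and single ones in 45 of 103 (43.7%, 33.9 to 53.8%), so the intervals overlapped. On chromosome V the shares were close, 38 of 119 clustered (31.9%) and 15 of 48 single receptors (31.2%). On the other chromosomes they were 16 of 41 (39%) and 30 of 55 (54.5%). The best peaks of bound clustered receptors were weaker, with a median rank of 5154.5 against 3734 for single ones. Among the 4375 strongest peaks ranked 19 of 54 clustered (35.2%) and 27 of 45 single ones (60%). Of the bound clustered receptors 38 of 54 were on chromosome V, and of the single ones 15 of 45. On chromosome V 20 of 53 bound receptors ranked among the 4375 strongest. Ranks were not split by chromosome, so clustering and chromosome were not separated here.

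In the 10 clusters of 5 or more receptors, 23 of 75 were bound (30.7%, 20.5 to 42.4%), against 27.4% of all protein-coding genes. Most of these clusters were on chromosome V, where 20.1% of all protein-coding genes were bound. In the largest, of 12 receptors over 45.8 kb of the left end of chromosome V (451451 to 497297), 2 were bound. These were nhr-201, described above, and nhr-131, the last gene of the cluster (rank 4339, ranks 2934 and 5171 in the replicates, in its own 5′ UTR). The 10 others, from nhr-123 to nhr-106, had no optimal peak in their windows. A cluster of 9 at V 2210510 to 2235180 was bound only in its first 3 genes, nhr-133, nhr-184 and nhr-56, with best ranks of 6827, 6126 and 5372. The summit of nhr-184 lay nearer to the start of its neighbour nstp-8, and that of nhr-133 ranked 15388 in replicate 1 and 5908 in replicate 2. The other 6, nhr-128, nhr-103, nhr-18, nhr-126, nhr-134 and nhr-96, were not bound. In another cluster of 9, from nhr-185 to nhr-124 (V 3844429 to 3886204), no receptor was bound, and the same held for a cluster of 8 from nhr-51 to nhr-53 (V 15674007 to 15702363).

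Among the 45 clusters, 3 had 4 bound receptors, the most seen, and all 3 were clusters of 7 on chromosome V. These clusters were picked for that count. Of all protein-coding genes of chromosome V 20.1% were bound, with 12.1% in its outer parts and 27.4% in its centre. The first cluster below lies in the outer parts and the others in the centre. The best peaks of nhr-178, nhr-139 and nhr-208 had support from replicate 1 alone. In the first (1603906 to 1629432), nhr-178, nhr-177, nhr-237 and nhr-238 were bound and the middle genes nhr-179, nhr-117 and nhr-110 were not. The best of them was nhr-237 (rank 3051, 660 bp upstream, ranks 5043 and 2497). In the second (6980587 to 7000651), nhr-161, nhr-139, nhr-107 and nhr-42 were bound with ranks from 4660 to 7976, and nhr-163, nhr-140 and nhr-162 were not. There nhr-107 and nhr-42 had the same best peak. In the third (12092006 to 12109313), nhr-206, nhr-208, nhr-154 and nhr-136 were bound, and nhr-207, nhr-209 and nhr-153 were not. The peak of nhr-136 was the strongest there (rank 2197, signal 252, 41 bp upstream, ranks 3139 and 2050), and those of the other 3 ranked from 4826 to 7337. Over all clusters, 16 had no bound receptor, 13 had 1 and 16 had 2 or more, and in 6 every receptor was bound.

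**Figure D2:**
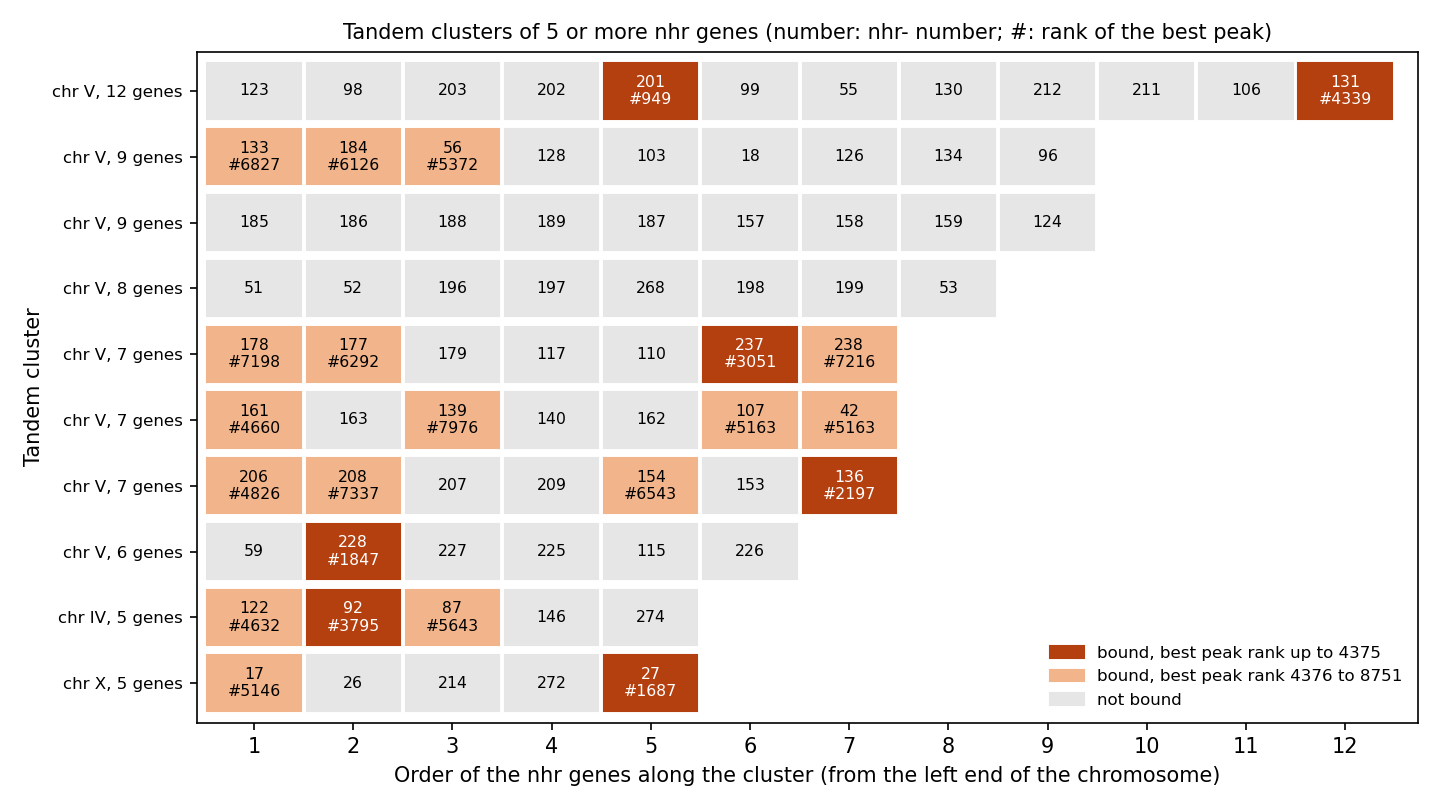
The 10 tandem clusters with 5 or more receptor genes, 1 per line, with each gene as a box in chromosome order (horizontal axis: order in the cluster). Box numbers are nhr- numbers and # gives the rank of the best peak; dark boxes had a best peak up to rank 4375, light orange boxes a weaker one and grey boxes none. Bound genes stand among unbound neighbours, as with nhr-201 and nhr-131 in the cluster of 12, and no gene is bound in 1 of the clusters of 9 and in the cluster of 8.

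Some neighbouring receptors share 1 peak. In 4 pairs the same optimal peak was the best peak of both genes, and in all 4 the genes are transcribed away from each other with the peak between or at their starts. They were nhr-94 and nhr-152 (rank 4270, V 7686173 to 7686508), nhr-107 and nhr-42 (rank 5163, V 6998307 to 6998642), nhr-89 and nhr-169 (rank 8345) and nhr-263 and nhr-148 (rank 8531). The summit lay within 10 bp of both starts only for nhr-94 and nhr-152, at 6 and 9 bp upstream. The 99 bound receptors thus had 95 distinct best peaks. In total 25 shared their best peak with any other protein-coding gene, 17 of them with a gene that is no receptor of this set. The best peak of 74 receptors (74.7%) lay in the window of no other protein-coding gene, against 54.4% over all bound genes, and for 89 (89.9%, against 75%) their own start was the nearest. The 10 exceptions were nhr-8, nhr-68, nhr-89, nhr-107, nhr-142, nhr-148, nhr-152, nhr-184, nhr-232 and nhr-280, and nhr-142 and nhr-280 are named only here, after their values were seen.

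Most best summits lay upstream and outside genes. They were upstream of the start for 88 of 99 receptors (88.9%, against 92.3% of all bound genes), with a median of 225 bp upstream (282 bp over all bound genes). Summits in intergenic sequence numbered 74 (74.7%, against 72.2%), those in 5′ UTRs 12 (12.1%, against 6.36%) and those in introns 10 (10.1%, against 12.6%). Exons of other gene types held 2 (2.02%, against 5.68%) and a coding exon 1 (1.01%, against 1.77%). In 3′ UTRs there were none, where 77 of all 5476 bound genes (1.41%) had their best summit. Clustered receptors had summits closer to the start, at a median of 125.5 bp upstream, than single ones, at 386 bp. The 200 bp just upstream held 24 of 54 clustered (44.4%) and 12 of 45 single best summits (26.7%), against 32.4% over all bound genes. Farther out, from 501 to 1500 bp upstream, lay 11 of 54 clustered and 21 of 45 single ones, against 1959 of all 5476 bound genes.

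**Figure D3:**
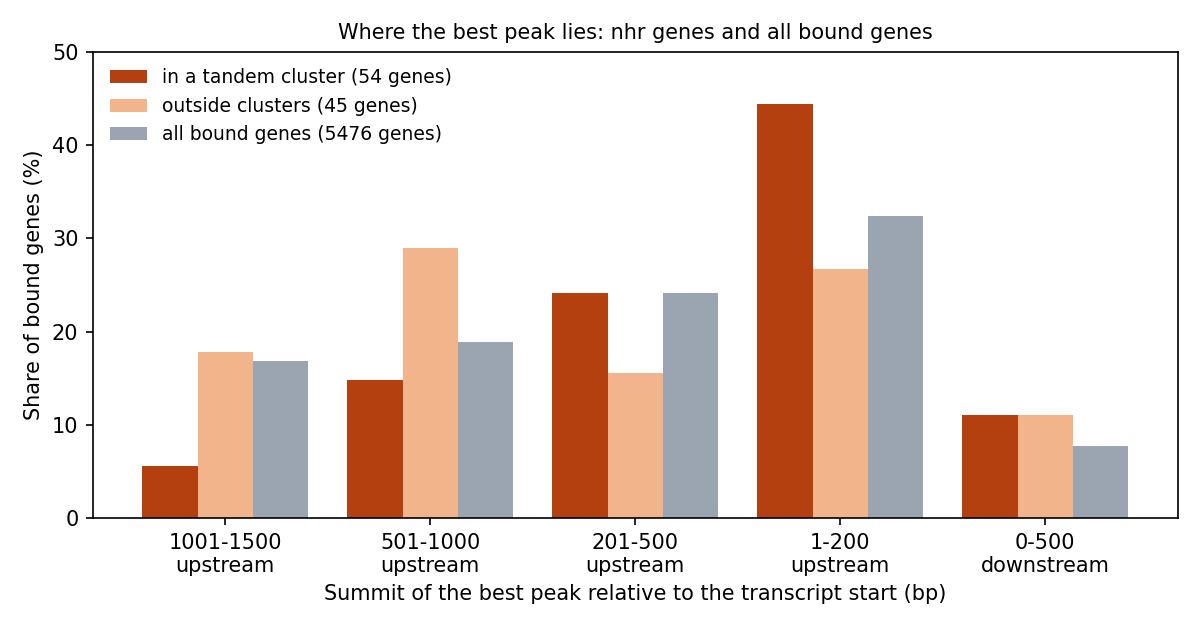
Share of bound genes (vertical axis, percent) whose best summit lies in each range of distance from the nearest of the gene's transcript starts (horizontal axis, bp), for clustered receptors (dark), single receptors (light) and all bound protein-coding genes (grey). Bars give shares without error bars. The dark bar is highest in the 200 bp upstream of the start, at 44.4%, and lowest beyond 1000 bp, at 5.56%.

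The number of starts moved with binding in the family as in the genome. Receptors with 1 annotated start were bound in 48 of 172 cases (27.9%, against 22.8% of all such genes) and those with 2 or more in 51 of 91 (56%, against 40.3%). A single peak was found for 75 of the 99 bound receptors (75.8%, against 82% of all bound genes). There were 2 peaks for 16 (16.2%, against 14.3%) and 3 or more for 8 (8.08%, against 3.69%). The 3 receptors with the most peaks, 4 each, were nhr-34, nhr-49 and nhr-66, which have 5, 6 and 7 starts.

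Both replicates supported the best peak of 79 of the 99 bound receptors (79.8%), which is 30% of all receptors (24.6 to 36%), against 21.8% of all protein-coding genes. Over all bound genes the supported share was 79.6%. Support came from replicate 1 alone for 10 receptors (10.1%, against 4.64% of all bound genes) and from replicate 2 alone for 9 (9.09%, against 15.2%). Among the former were nhr-178, nhr-208, nhr-139 and the pair nhr-263 and nhr-148, and among the latter nhr-48 and nhr-133. The peak of nhr-90 (rank 8714, named after its values were seen) had a summit among the 8751 strongest of neither replicate, with rank 10765 in replicate 1 and no summit within 100 bp in replicate 2. With the replicates' whole lists, 91 receptors had a summit in both. Across these 91 receptors the ranks in the 2 replicates had a Spearman's rho of 0.757, and across 4990 bound genes 0.731. These are descriptions across genes, which share libraries and in part peaks. The 12 receptors with a best rank up to 1000 were all supported in both replicates.

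**Figure D4:**
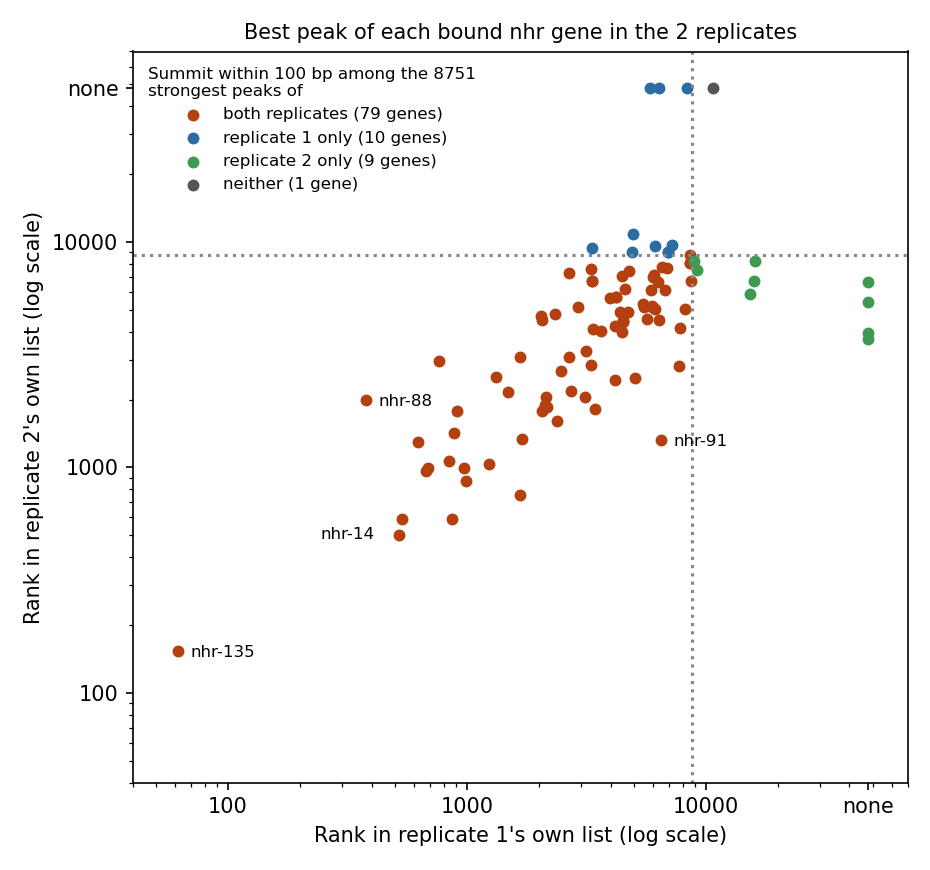
Rank of the best peak of each of the 99 bound receptors in replicate 1's own list (horizontal, log scale) and replicate 2's own list (vertical, log scale); genes without a summit within 100 bp are placed at "none", and dotted lines mark rank 8751. Points follow the diagonal for the stronger peaks, nhr-135 stands apart with ranks 62 and 153, and nhr-88 and nhr-91 are examples of unequal ranks.

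A minority of receptor peaks held the motif. At most 1 mismatch to AAAGTGAAA on either strand was found in the 150 bases around the best summit of 21 of 99 receptors (21.2%), against 31.9% of all optimal peaks and 27.8% of the best peaks of all bound genes. Windows of the same length 500 bp to either side of the receptors' summits held it in 15.2% of cases, and those of all optimal peaks in 19.3%. An exact match was present for nhr-156 alone (rank 1928, V 3905964 to 3906134, 69 bp upstream). That was 1.01% of bound receptors, against 4.44% of the best peaks of all bound genes and 5.42% of all optimal peaks. Of the 12 receptors up to rank 1000, nhr-256 and nhr-88 held a match with 1 mismatch. The windows of bound receptors had a median GC content of 40%, and those of all optimal peaks 40.7%.

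The bound receptors with best summits nearest to the 1500 bp limit were nhr-14, at 1478 bp, and nhr-10, at 1390 bp. Each also had a weaker optimal peak farther inside its window, 185 bp downstream of a start for nhr-14 (rank 4064) and 882 bp upstream for nhr-10 (rank 7473), so neither call rested on that limit. Just outside were nhr-71, with a peak of rank 1849 at 1546 bp upstream, and nhr-77, with a peak of rank 8104 at 1580 bp. Below the optimal list, 70 of the 164 unbound receptors (42.7%) had a weaker peak of the list from both replicates together in their windows, against 30% of the 14497 unbound protein-coding genes. For 29 of them, a count that was not made for all unbound genes, that peak had a summit in the whole lists of both replicates. The strongest, named after their values were seen, were those of nhr-221 (rank 8757, ranks 7149 and 10756 in replicates 1 and 2) and of nhr-98 in the cluster of 12 (rank 8805, ranks 7673 and 10567). No peak of any strength in that list lay in the windows of the other 94, among them nhr-6, nhr-111 and nhr-176.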

How the data were processed

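BLMP-1 ChIP-seq was measured in 2 samples of 1 group, replicates 1 and 2 per the labels. The deposited narrowPeak lists on ce11 hold 1 signal per peak, a value the authors' caller wrote with no stated scale, which served here to order peaks inside 1 list. Per the deposited file listings, peaks were called on each replicate and on both together against a control, and the optimal list came from an IDR analysis of these lists. For the aligner, the caller, their versions and the IDR threshold: not given in the sources used here. Depth is unknown. The ce10 lists and text listings were not used for values.

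Gene models were Ensembl release 115 (WBcel235) and the genome was RefSeq's of the same assembly. Summits were start plus offset, given 1-based, and every start of a protein-coding transcript had a window from 1500 bp upstream to 500 bp downstream. Matches used 100 bp, and N was 8751. Motif windows were 75 bp on each side. Intervals are 95% Clopper-Pearson intervals. No test was run across the family. The steps were tested on simulated data.

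The members and lists were chosen with earlier results of these data known. Named are receptors with a best peak up to rank 1000, those of the role lists, of the 3 largest and the 3 most bound clusters, those that share a best peak, those at the window's limit and those with the most peaks. Alternatives were other peak lists, windows, assignments, cluster definitions, match distances and motif settings, and each replicate left out. Python 3.11.15 was used with numpy 2.4.6, pandas 2.3.3, scipy 1.17.1 and matplotlib 3.10.9.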

Additional observations from a re-analysis of the deposited data

How the results depend on the processing

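The count of 99 bound receptors fell to 46 with the 4375 strongest peaks, and those in tandem clusters from 54 to 19 and on chromosome V from 53 to 20. Those peaks are a subset of the optimal list. With the exact motif the count of best peaks with a match fell from 21 to 1. Every other alternative stayed within 1.5 times of the main count. For bound receptors the lowest of these counts was 74, in a window of 500 bp upstream (28.1%, against 19.5% of all protein-coding genes). The highest was 120, in one of 3000 bp (45.6%, against 34.5%). Other settings gave 80 with peaks matched in both replicates (30.4%, against 22%) and 102 with the nearest start only (38.8%, against 25.1%). There were 95 with the most upstream start only (36.1%, against 25.9%) and 97 without peaks near small RNA genes (36.9%, against 26.4%). Leaving out a replicate gave 93 and 99 bound receptors, 49 and 57 in clusters, and 49 and 54 on chromosome V. Of the 99, 89 were also bound without replicate 1 and 91 without replicate 2. Of the receptors named by rule, nhr-148, nhr-178, nhr-208 and nhr-263 were not bound without replicate 1, nor nhr-133 without replicate 2. In turn nhr-71 was bound without replicate 1, and nhr-98 and nhr-179 without replicate 2. Of the 99, 33 were bound under all 9 alternatives of peaks, windows and starts, and of the 164 unbound 134 were unbound under all. Both other cluster definitions gave 45 of 134 and 55 of 170 clustered receptors bound. The supported count was 72 at 50 bp, 81 at 200 bp and 91 with whole lists, and the motif count 15 within 50 bp and 25 within 100 bp. No paired analysis was possible because there is 1 group. Unknown depth limits how absent peaks can be read: a gene without a peak is one whose signal did not reach these lists.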

Other observations

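Copies of a gene family can share sequence, which bears on where reads can be placed. Of the best peaks of the 99 bound receptors, 1 (1.01%, the peak of nhr-87 on chromosome IV, named after its values were seen) held any word of 36 bases in its 150-base summit window that also occurs elsewhere in the genome, and such words made up 13% of that window. Over the best peaks of all bound genes the share was 1.46%, and over all optimal peaks 1.63%. These windows had already yielded a called peak, so the shares cannot show whether repeated sequence hid peaks elsewhere. Windows of unbound receptors were not examined in this way.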
